A study of Rattus norvegicus with 10 samples.

Results

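The insulin-like growth factor axis was followed in the retina of newborn rats through 8 genes: the binding proteins Igfbp2, Igfbp3, Igfbp4 and Igfbp5, the ligands Igf1 and Igf2, and the receptors Igf1r and Igf2r. They were taken as the probe sets whose only gene symbol in the platform annotation was one of these names, and each had 1 probe set among the 14324 named genes and 27342 probe sets of the array. The group was chosen with the data in view, because Igfbp2 had the strongest fall in hyperoxia, so the exposure differences of Igfbp2 are given below as a description without a test. The other 7 members were chosen by family, though with earlier results of these data known.

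Retinal RNA was compared in 4 groups at postnatal day 3. Sprague Dawley (SD) rats, described in the design as susceptible to oxygen-induced retinopathy, were kept in cyclic hyperoxia (2 pools) or in room air (3 pools). F344 (Fischer) rats, described as resistant, were kept in cyclic hyperoxia (3 pools) or in room air (2 pools). Cyclic hyperoxia began within 12 hours of birth and alternated 24-hour periods at 80% and at 21% oxygen, with each mother kept in the chamber with its litter, and room-air pups were of the same age. Oxygen-induced retinopathy is the rodent model of retinopathy of prematurity, in which the growth of retinal vessels is arrested by oxygen and later turns abnormal; at day 3 the retina is still developing and the exposure is at an early stage. A pool combined the RNA of 3 rats out of 2 litters and was read on 1 array, so precision is limited by the number of arrays, and p-values refer to the spread between pools. All values below are log2 expression values of a probe set, deposited to 1 decimal, and differences are log2 differences with their standard error (SE).

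Insulin-like growth factors are small secreted proteins that act through Igf1r, a receptor tyrosine kinase that signals through adaptor proteins to phosphatidylinositol 3-kinase, Akt and mTOR. The binding proteins hold the ligands in the extracellular space and either limit or prolong their access to the receptor, and Igf2r, the cation-independent mannose 6-phosphate receptor, takes Igf2 up for degradation. In the retina Igf1 is known as a factor that vessel growth needs alongside Vegfa, and low circulating levels of it in preterm infants are associated with retinopathy of prematurity.

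The arrays were alike in scale, with medians between 5.9 and 6, and all 14 measured retina markers lay above the array median in all 10 arrays. The first principal component (34.1% of the variance) separated pool 3 of SD room air (score 36.41) and pool 3 of F344 hyperoxia (30.08) from the remaining 8 arrays, whose scores did not exceed -1.77. The design text says that 1 array of each of these groups was added after a first analysis of 8, and the pools numbered 3 were taken to be these from their numbers. Where these 2 arrays moved a member's exposure difference within a strain, or strain difference within an exposure, by over 0.1, the value without them is given below too.

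The promoters are shown because Igfbp2 and Igfbp5 are the nearest neighbours among the 8 genes. Igfbp2 was chosen for its fall in hyperoxia, and Igfbp5 had no fall of that size. In the RefSeq gene order of the assembly GRCr8 both lie on chromosome 9, Igfbp2 on the plus strand and Igfbp5 on the minus strand, with 0 genes between them, so that their ends face each other. Fam162a is shown beside them as the gene of those most like Igfbp2 (described below) with the highest rank that had a match to the first motif below. It was thus picked for that motif. Ranked above it, Cox4i2 had no window in the table and the window of Pdk1 held no match to the motif. A link between the motif and the response was not tested. Each sequence is the 250 bases before the gene's start, 5′ to 3′ on the gene's strand, from RefSeq with the build GRCr8: chr9:81864561-81864810 (plus strand) for Igfbp2, chr9:81914188-81914437 (minus strand) for Igfbp5 and chr11:78186051-78186300 (plus strand) for Fam162a. Capitals mark matches to ACGTG, a form of the core of the hypoxia response element, and to GGGCGG, the GC box, read on both strands (CACGT and CCGCCC on the other strand). Other forms of that core were not searched.
Igfbp2: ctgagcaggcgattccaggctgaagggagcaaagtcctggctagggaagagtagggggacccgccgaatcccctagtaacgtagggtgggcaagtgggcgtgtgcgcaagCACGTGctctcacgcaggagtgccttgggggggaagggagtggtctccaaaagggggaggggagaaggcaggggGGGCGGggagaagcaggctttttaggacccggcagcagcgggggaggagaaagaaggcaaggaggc
Igfbp5: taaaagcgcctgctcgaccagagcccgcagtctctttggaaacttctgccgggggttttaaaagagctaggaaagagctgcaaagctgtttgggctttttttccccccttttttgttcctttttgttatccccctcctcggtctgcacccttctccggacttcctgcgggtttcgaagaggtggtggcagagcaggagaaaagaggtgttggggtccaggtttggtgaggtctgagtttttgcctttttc
Fam162a: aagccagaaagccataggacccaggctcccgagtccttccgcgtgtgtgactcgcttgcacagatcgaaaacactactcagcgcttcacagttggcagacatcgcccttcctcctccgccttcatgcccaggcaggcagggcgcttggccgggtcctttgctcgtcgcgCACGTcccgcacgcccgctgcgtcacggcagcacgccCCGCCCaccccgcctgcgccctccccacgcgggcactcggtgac
The window of Igfbp2 held 1 CACGTG stretch, in which ACGTG reads on both strands at 140 and 139 bases before the start, and 1 GC box. The window of Igfbp5 held neither. Of 33469 promoter windows of this length in the table, 16.6% held ACGTG, 30.5% held GGGCGG and 12.9% held TATAAA, the TATA box. Among the 9 windows of the 8 genes (Igf2 has 2 starts in the table), 4 held ACGTG, namely those of Igfbp2, Igf1r, Igf2r and 1 start of Igf2, 4 held the GC box and 1, that of Igfbp4, the TATA box. With each strand counted, Igf2r had the most matches to ACGTG of the members, at 125, 124, 85 and 84 bases before its start. These are 2 CACGTG stretches, each read on both strands. Igf1r had matches at 137, 31 and 30 bases, the last 2 from 1 such stretch.

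Igfbp2, a binding protein made by many fetal tissues and the developing eye, was lower in hyperoxia in both strains. In SD it stood at 6.6 and 6.7 in the hyperoxia pools, against 8.4, 8.5 and 8.6 in the room-air pools. In F344 it stood at 7.1, 7.4 and 7.5 in the hyperoxia pools, against 8.2 and 8.2 in the room-air pools. All 5 hyperoxia pools thus lay below all 5 room-air pools, with the SD hyperoxia pools lowest. The group means were 6.65 ± 0.0707 in SD hyperoxia (mean ± standard deviation over pools, n = 2) and 8.5 ± 0.1 in SD room air (n = 3), and 7.33 ± 0.208 in F344 hyperoxia (n = 3) and 8.2 ± 0 in F344 room air (n = 2). The log2 difference was -1.85 (SE 0.127) in SD, 3.605-fold lower in hyperoxia, and -0.87 (SE 0.127) in F344, 1.82-fold lower. The average of both was -1.36 (SE 0.0898), and the SD difference minus the F344 difference was -0.98 (SE 0.18). Of the variation of Igfbp2 over the 10 arrays, 97.8% lay between the 4 groups.

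These values chose the gene and carry no test. For scale, 0.0439% of all 27342 probe sets passed an adjusted p of 0.05 in SD and 0.00366% in F344 (12 and 1 probe sets), and the groups did not overlap at 15.3% of probe sets in SD and at 12.3% in F344. By its t statistic Igfbp2 ranked ahead of Cox4i2 (-1.43, SE 0.153) among the falls in SD and second behind Adra1b (-1.03, SE 0.110) in F344. By size alone the lactate exporter Slc16a3 had larger differences, of -1.98 in SD and -0.95 in F344. Left out in turn, the single arrays moved the Igfbp2 difference between -1.9 and -1.8 in SD and between -0.95 and -0.75 in F344. With a term for the pools numbered 3 the differences were -1.78 (SE 0.111) in SD and -0.93 (SE 0.111) in F344.

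**Figure D1:**
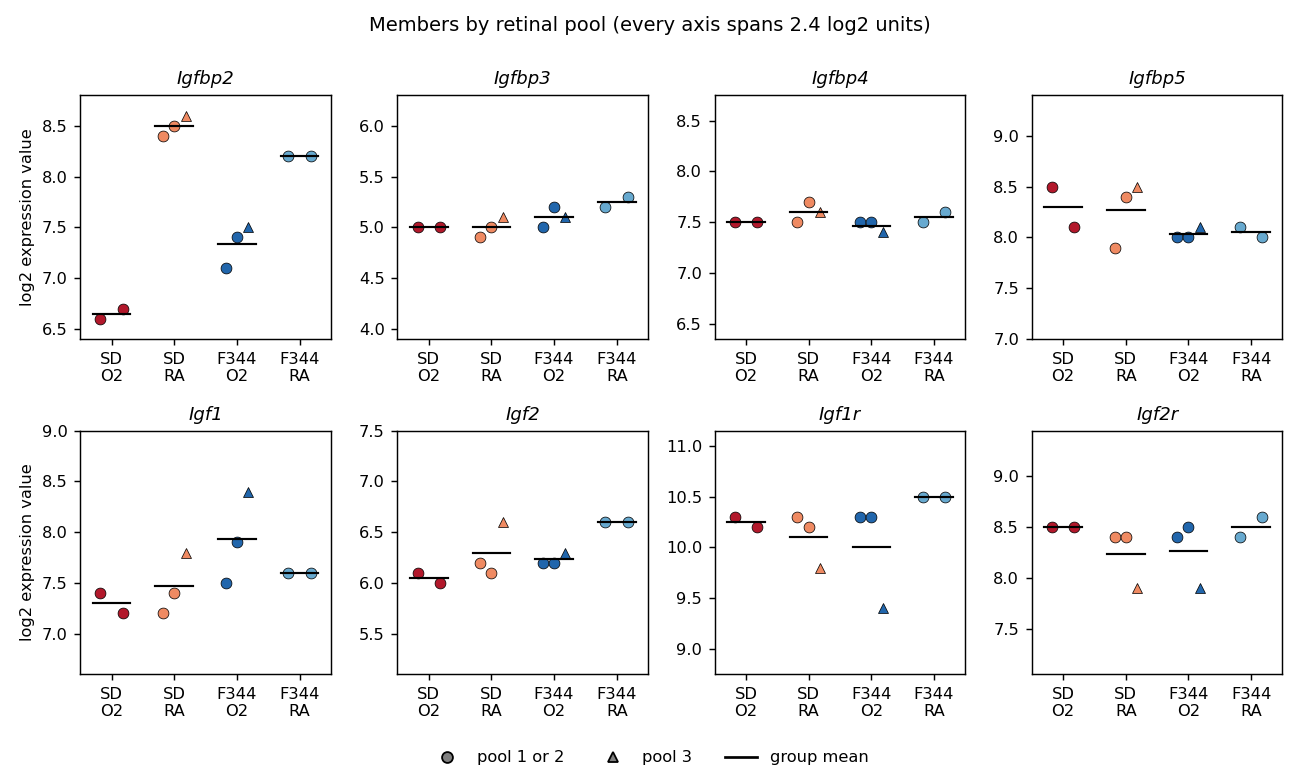
Log2 expression value (vertical axis, with the same span in every panel) of the 8 genes in each retinal pool, by strain and exposure (O2, cyclic hyperoxia; RA, room air). Points are pools, triangles the pools numbered 3 and lines group means. Igfbp2 lies between 6.6 and 7.5 in the 5 hyperoxia pools and between 8.2 and 8.6 in the 5 room-air pools, while the triangles of Igf1r and Igf2r lie below the other pools of their groups.

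Most markers of vessel cells lay in the same direction as Igfbp2, with smaller values. Of 13 measured endothelial markers, 12 lay below 0 in SD (median -0.35) and 13 in F344 (median -0.27). None passed the adjusted threshold by limma in either strain, but 8 had an unadjusted p under 0.05 in SD and 6 in F344, against 5.95% and 4.83% of all probe sets. Their mean log2 level per pool ran from 4.89 to 4.95 in SD hyperoxia, against 5.10 to 5.50 in SD room air, and from 4.95 to 5.03 in F344 hyperoxia, against 5.17 to 5.33 in F344 room air. Of these markers 11 lay below the array median in all arrays. Of 10 pericyte and smooth muscle markers, 10 lay below 0 in SD, and in F344 7 lay below and 3 above. Their median was -0.25 in each strain, and 3 had an unadjusted p under 0.05 by limma in SD and 5 in F344. Their mean level per pool ran from 5.21 to 5.33 in SD hyperoxia, against 5.39 to 5.70 in SD room air, and from 5.29 to 5.36 in F344 hyperoxia, against 5.49 to 5.52 in F344 room air. Of 7 astrocyte markers, 6 lay below 0 in SD (median -0.13) and 4 in F344 (median -0.017), and their mean level per pool ran from 5.97 to 5.99 in SD hyperoxia, against 6.10 to 6.16 in SD room air, and from 5.93 to 6.03 in F344 hyperoxia, against 6.06 to 6.10 in F344 room air. For markers of tissue around the retina the pools of both exposures overlapped in SD. Of 7 lens markers, 7 lay below 0 in SD (median -0.28) and 5 in F344 (median -0.017), with a mean level per pool from 5.17 to 5.29 in SD hyperoxia, against 5.01 to 6.14 in SD room air, and from 4.99 to 6.11 in F344 hyperoxia, against 5.43 to 5.53 in F344 room air. Of 6 surface epithelium markers, 6 lay below 0 in SD (median -0.13) and 1 in F344 (median 0), with a mean level per pool from 5.08 to 5.12 in SD hyperoxia, against 5.10 to 5.45 in SD room air, and from 5.12 to 5.28 in F344 hyperoxia, against 5.07 to 5.17 in F344 room air. Of 13 fibroblast and sclera markers, 11 lay below 0 in SD (median -0.25) and 4 in F344 (median 0.017), with a mean level per pool from 5.07 to 5.47 in SD hyperoxia, against 5.10 to 6.07 in SD room air, and from 5.28 to 5.39 in F344 hyperoxia, against 5.18 to 5.22 in F344 room air. Pigment epithelium had 7 of 11 markers above 0 in each strain (medians 0.033 in SD and 0.083 in F344). Skeletal muscle had 6 of 9 below 0 in SD and 5 in F344 (median -0.05 in each). Retina had 10 of 14 below 0 in SD (median -0.075) and 5 in F344 (median 0.092). Microglia had 5 of 8 below 0 in SD (median -0.10) and 4 in F344 (median -0.0083). None of these markers passed the test in either strain. The part of these cell types in the Igfbp2 difference was not tested, and in whole retina fewer cells of a type and less RNA per cell cannot be told apart.

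None of the other 3 binding proteins passed the test in either strain. Igfbp3, the main carrier of these ligands in blood, stood at 5.0 and 5.0 in SD hyperoxia, against 4.9, 5.0 and 5.1 in SD room air, and at 5.0, 5.2 and 5.1 in F344 hyperoxia, against 5.2 and 5.3 in F344 room air. It was dim, below the array median throughout, and its groups overlapped in each strain. The differences were 0.00 (95% interval -0.234 to 0.234) in SD and -0.15 (-0.384 to 0.0840) in F344.

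Igfbp4, which binds the ligands until it is cleaved by the protease Pappa, varied least of the 8 genes, between 7.4 and 7.7 in all pools. It stood at 7.5 and 7.5 in SD hyperoxia, against 7.5, 7.7 and 7.6 in SD room air, and at 7.5, 7.5 and 7.4 in F344 hyperoxia, against 7.5 and 7.6 in F344 room air. Its differences were -0.10 (-0.325 to 0.125) in SD and -0.08 (-0.308 to 0.141) in F344.

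Igfbp5, a matrix-bound binding protein and the neighbour of Igfbp2, stood at 8.5 and 8.1 in SD hyperoxia, against 7.9, 8.4 and 8.5 in SD room air. In F344 it stood at 8.0, 8.0 and 8.1 in hyperoxia, against 8.1 and 8.0 in room air. Its spread was thus wider among SD pools than among F344 pools, and exposed and unexposed pools overlapped in both. The differences were 0.03 (-0.336 to 0.403) in SD and -0.02 (-0.386 to 0.353) in F344 (0.15 and -0.05 without both arrays numbered 3), intervals that leave out a fall of the size of Igfbp2 in the same strain. On the other side of Igfbp2 the nearest measured gene, Rpl37a of the large ribosomal subunit, differed by -0.30 (SE 0.147) in SD and 0.08 in F344.

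The ligands had smaller differences than Igfbp2, and neither passed the test. Igf2, the fetal ligand, stood at 6.1 and 6.0 in SD hyperoxia, against 6.2, 6.1 and 6.6 in SD room air, and at 6.2, 6.2 and 6.3 in F344 hyperoxia, against 6.6 and 6.6 in F344 room air. The F344 groups did not overlap, whereas the SD groups shared the value 6.1. The difference was -0.25 (SE 0.137) in SD, -0.37 (SE 0.137, adjusted p = 0.921 by limma) in F344 and -0.31 (SE 0.0971, unadjusted p = 0.00787, adjusted p = 0.985) on average. Without both arrays numbered 3 it was -0.10 in SD, -0.40 in F344 and -0.25 on average. In the average 1115 of all probe sets had an unadjusted p under 0.05 and 0.0402% passed after adjustment.

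The nearest measured gene on 1 side of Igf2, with 1 unmeasured gene between, was H19, a noncoding RNA that is imprinted in the opposite way. H19 stood at 9.5 and 9.3 in SD hyperoxia, against 9.3, 9.8 and 10 in SD room air, and at 9.9, 10 and 10.2 in F344 hyperoxia, against 10.2 and 10.4 in F344 room air. Its average exposure difference was -0.28 (SE 0.127, adjusted p = 0.990), and it was not called in either strain.

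Igf1, the ligand under growth hormone control, did not pass the test in either strain. It stood at 7.4 and 7.2 in SD hyperoxia, against 7.2, 7.4 and 7.8 in SD room air, and at 7.5, 7.9 and 8.4 in F344 hyperoxia, against 7.6 and 7.6 in F344 room air. Both strains' groups overlapped, and the highest pools in SD room air and in F344 hyperoxia were those numbered 3. The difference was -0.17 (SE 0.225) in SD and 0.33 (SE 0.225) in F344, and the difference of these effects was -0.50 (SE 0.318, adjusted p = 0.678). With both arrays numbered 3 left out these values were 0.00 in SD, 0.10 in F344 and -0.10 for the difference of effects.

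Igf1r, the signalling receptor, stood at 10.3 and 10.2 in SD hyperoxia, against 10.3, 10.2 and 9.8 in SD room air. In F344 it stood at 10.3, 10.3 and 9.4 in hyperoxia, against 10.5 and 10.5 in room air. The pools at 9.8 and 9.4 were those numbered 3. The difference was 0.15 (SE 0.235) in SD and -0.50 (SE 0.235, unadjusted p = 0.0547, adjusted p = 0.921) in F344, where the groups did not overlap. Without both arrays numbered 3 it was 0.00 in SD and -0.20 in F344, and the difference of effects was 0.20 in place of 0.65.

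Igf2r, the clearance receptor of Igf2, stood at 8.5 and 8.5 in SD hyperoxia, against 8.4, 8.4 and 7.9 in SD room air, and at 8.4, 8.5 and 7.9 in F344 hyperoxia, against 8.4 and 8.6 in F344 room air. Both pools at 7.9 were numbered 3. The SD groups did not overlap, by 1 step of the deposited decimal, and the difference was 0.27 (SE 0.188, adjusted p = 0.815). In F344 it was -0.23 (SE 0.188). Without both arrays numbered 3 the differences were 0.10 in SD and -0.05 in F344, and the difference of effects was 0.15 in place of 0.50.

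Over the 7 members other than Igfbp2, 0 passed in SD, in F344, in the average or in the difference of effects, with 0, 1, 1 and 0 of them at an unadjusted p under 0.05. The background in the difference of effects was 0% of probe sets passing. Their differences ran from -0.25 to 0.27 in SD and from -0.50 to 0.33 in F344. Of the 7, the groups did not overlap for Igf2r (higher) in SD and for Igf2 and Igf1r (lower) in F344, against 15.3% and 12.3% of all probe sets.

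**Figure D2:**
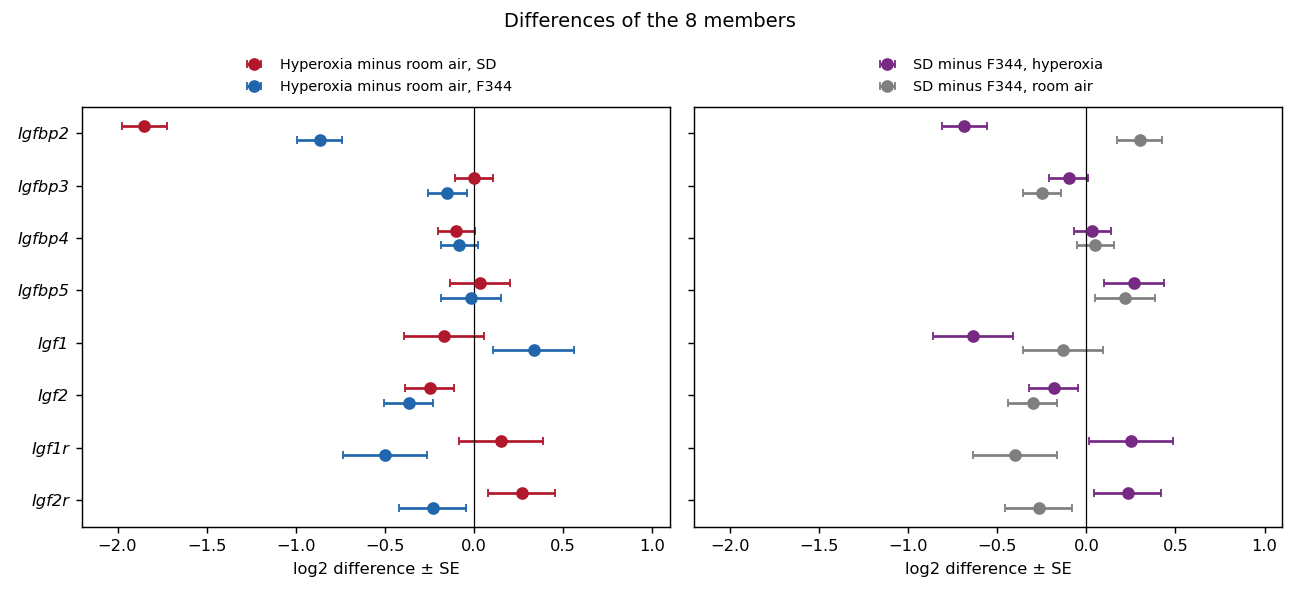
Log2 differences with their SE (horizontal axes) of the 8 genes, for hyperoxia minus room air in SD and F344 (left) and for SD minus F344 in hyperoxia and in room air (right). Igfbp2 lies at -1.85 and -0.87 on the left and at -0.68 and 0.30 on the right, and the other 7 genes lie between -0.50 and 0.33 on the left.

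The strains were next compared within an exposure. In hyperoxia Igfbp2 was lower in SD, at 6.6 and 6.7 in the SD pools, against 7.1, 7.4 and 7.5 in the F344 pools, a difference of -0.68 (SE 0.127, 1.61-fold lower, adjusted p = 0.0380 by limma). It was the only 1 of the 8 members to pass there, where 0.457% of all probe sets passed. These are the same hyperoxia arrays as in the contrasts that chose the gene, so this p is not independent of that choice. The call was lost in 8 of the 10 fits that left out 1 array: the adjusted p was 0.585 without SD hyperoxia pool 1, 0.304 without SD hyperoxia pool 2, 0.131 without F344 hyperoxia pool 2, 0.119 without F344 hyperoxia pool 3, 0.0878 without either F344 room-air pool, 0.0631 when SD room-air pool 1 was left out and 0.0731 when pool 2 of that group was. The difference itself stayed between -0.8 and -0.6 in these fits, and was -0.60 (adjusted p = 0.122) without both arrays numbered 3.

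In room air the order of the strains was the other one: Igfbp2 stood at 8.4, 8.5 and 8.6 in SD pools, against 8.2 and 8.2 in F344 pools, without overlap, a difference of 0.30 (SE 0.127, adjusted p = 0.397). The room-air arrays also entered the contrasts that chose the gene, so this p is not independent of that choice either. None of the 8 members passed in room air, with 0.556% of all probe sets passing and 3 of the 8 (Igfbp2, Igfbp3 and Igf2) at an unadjusted p under 0.05, against 11.4% of all probe sets. The groups did not overlap for Igfbp2 (higher in SD), Igfbp3 and Igf1r (lower in SD), against 19.7% of all probe sets, and in hyperoxia for Igfbp2, Igf1 and Igf2 (lower in SD), against 14.7%.

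Igf1 stood at 7.4 and 7.2 in SD hyperoxia, against 7.5, 7.9 and 8.4 in F344 hyperoxia, a difference of -0.63 (SE 0.225, unadjusted p = 0.0153, adjusted p = 0.530), and of -0.40 without both arrays numbered 3. Igf2 differed by -0.18 (SE 0.137) between the strains in hyperoxia and by -0.30 (SE 0.137, adjusted p = 0.435) in room air, where it was -0.45 (adjusted p = 0.0880) without both arrays numbered 3. Other strain differences in room air were, with all arrays, -0.13 for Igf1, 0.22 for Igfbp5, -0.40 for Igf1r and -0.27 for Igf2r, and without those arrays -0.30 for Igf1, 0.10 for Igfbp5, -0.25 for Igf1r and -0.10 for Igf2r. In hyperoxia Igf1r differed by 0.25 with all arrays and by -0.05 without them, and Igf2r by 0.23 with all arrays and by 0.05 without them. The neighbour of Igf2, H19, differed by -0.63 (SE 0.179, adjusted p = 0.295) in hyperoxia and by -0.60 (SE 0.179, adjusted p = 0.228) in room air, with no overlap of the strains in either exposure.

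The receptors and Igf1 were seen to stand apart in the pools numbered 3, so the differences of these pools from the other pools of their groups are given as a description, with no test. Igf1r differed by -0.68 (SE 0.106), at 9.4 in F344 hyperoxia pool 3, against 10.3 and 10.3 in pools 1 and 2, and at 9.8 in SD room-air pool 3, against 10.3 and 10.2. Igf2r differed by -0.53 (SE 0.0909), at 7.9 in both pools numbered 3. Igf1 differed by 0.60 (SE 0.120), at 8.4, against 7.5 and 7.9, in F344 hyperoxia and at 7.8, against 7.2 and 7.4, in SD room air. Both groups had the same sign for these 3 genes, each with 1 array set against 2. Igfbp2 differed by 0.20 (SE 0.101), a small amount beside its exposure differences. The 2 pools are of opposite strain and exposure, so this shift enters the exposure difference of SD and that of F344 with opposite signs.

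**Figure D3:**
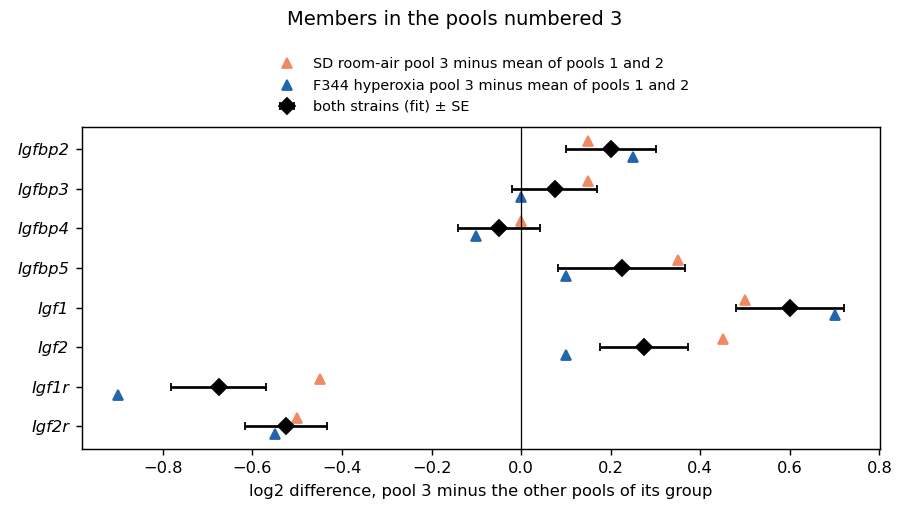
Log2 difference of the pools numbered 3 from the other pools of their groups (horizontal axis) for the 8 genes. Triangles give the SD room-air and the F344 hyperoxia group alone and diamonds the fit over both with its SE. Igf1r (-0.68) and Igf2r (-0.53) lie left of 0 and Igf1 (0.60) right of it in both groups.

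Beyond the 8 genes, 40 of 51 listed genes of the axis were measured, and 0 passed in any of the 6 comparisons, with 2 to 5 of them at an unadjusted p under 0.05 in each. Over all probe sets 4.08% to 11.4% had such a p. Their median differences were 0.025 in SD and -0.042 in F344, against 0 over all genes in both. The 9 other binding proteins and modulators had a median of -0.28 in SD, where 7 lay below 0, and of 0.083 in F344, where 3 did. Igfbp7, a related secreted protein of vessels, stood at 8.2 and 7.8 in SD hyperoxia, against 8.3, 8.6 and 9.0 in SD room air (-0.63, SE 0.213, adjusted p = 0.815). In F344 it stood at 8.2, 8.1 and 8.7 in hyperoxia, against 8.3 and 8.2 in room air. Its pools at 9.0 and 8.7 were those numbered 3. With 1 array left out its SD difference ran from -0.83 to -0.43. The list medians include the pools numbered 3. Stc2, a secreted inhibitor of the Pappa protease, stood at 5.5 and 5.6 in SD hyperoxia, against 6.0, 6.2 and 6.0 in SD room air (-0.52, SE 0.167). In F344 the Stc2 difference was 0.28, and the difference of the effects was -0.80 (SE 0.236, unadjusted p = 0.00528, adjusted p = 0.651). Igfbp1, the neighbour of Igfbp3 and known in other settings as a gene that low oxygen induces, differed by 0.00 in SD and by 0.10 in F344. It was dim, between 4.9 and 5.2 in all pools and below the array medians, so a response may go unseen.

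Among receptor adaptors the 7 measured genes had a median of 0.05 in SD and of -0.23 in F344, with 0 passing. The signed difference was higher in SD than in F344 for all 7, and the median was farther from 0 in F344. These values include the pools numbered 3, which enter the SD and the F344 difference with opposite signs. Irs1, the docking protein of the receptor, differed by -0.12 in SD and by -0.25 in F344, and Gab1, another docking protein, by -0.23 (SE 0.104, unadjusted p = 0.0439) in F344. Eif4ebp1, the translation repressor that mTOR phosphorylates, stood at 7.0 and 6.9 in SD hyperoxia, against 7.1, 7.6 and 7.5 in SD room air (-0.45, SE 0.150, adjusted p = 0.815).

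Pik3r3, a regulatory subunit of phosphatidylinositol 3-kinase, ran against Igfbp2 in both strains. It stood at 10.3 and 10.3 in SD hyperoxia, against 10, 9.9 and 9.9 in SD room air, and at 10.3, 10.2 and 10.3 in F344 hyperoxia, against 10 and 10 in F344 room air. Over all probe sets the groups did not overlap at 15.3% in SD and at 12.3% in F344, and the share for both strains together was not counted. For Pik3r3 all 5 hyperoxia pools lay above all 5 room-air pools, within the narrow range of 9.9 to 10.3. The difference was 0.37 (SE 0.0970, adjusted p = 0.679) in SD, 0.27 (SE 0.0970, adjusted p = 0.921) in F344 and 0.32 (SE 0.0686, unadjusted p = 5.71e-04, adjusted p = 0.347) on average, so it did not pass over all probe sets.

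**Figure D4:**
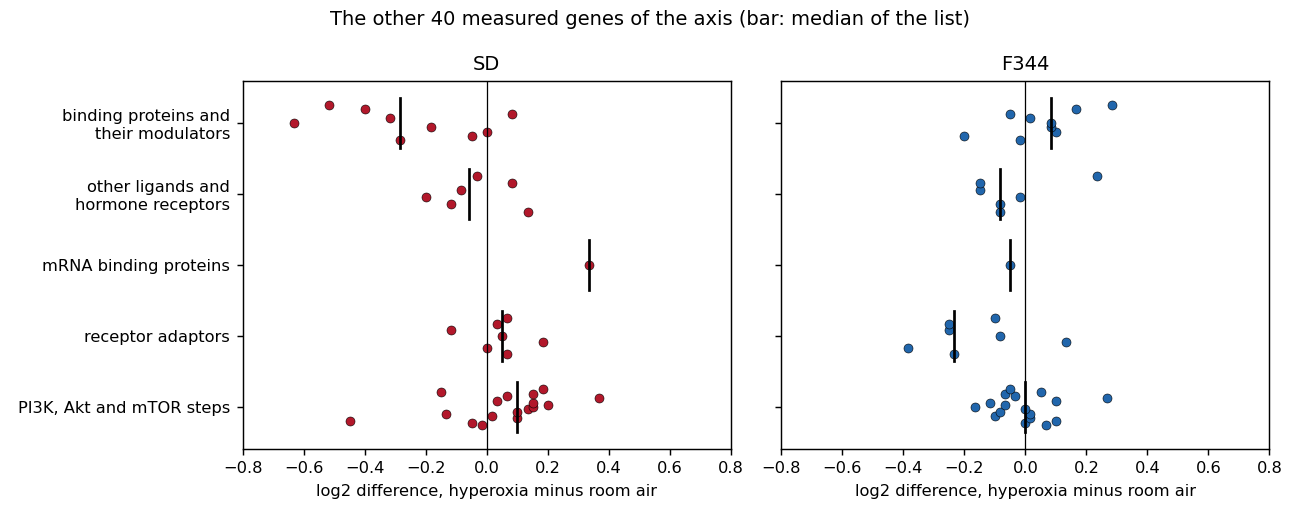
Log2 difference of hyperoxia from room air (horizontal axes) for the other 40 measured genes of the axis, in SD (left) and F344 (right), by role; points are genes and bars the median of each list. The binding proteins and modulators have their median at -0.28 in SD and at 0.083 in F344, and Pik3r3 is the point farthest right among the signalling steps in each panel.

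Htra1, a serine protease that cleaves Igfbp5 and other substrates, was the gene of the list with the smallest p between the strains in room air. It stood at 6.0, 6.6 and 7.0 in SD room air, against 5.5 and 5.6 in F344 room air (0.98, SE 0.226, adjusted p = 0.0965), and at 6.3 and 6.2 in SD hyperoxia, against 5.4, 5.4 and 5.8 in F344 hyperoxia (0.72, SE 0.226, adjusted p = 0.406). The SD pools lay above the F344 pools in both exposures. With a term for the pools numbered 3 it passed in both, at 0.80 (SE 0.154, adjusted p = 0.0231) in room air and at 0.90 (SE 0.154, adjusted p = 0.0131) in hyperoxia. It also passed in room air with median centring (adjusted p = 0.0481) and when pool 1 of SD room air was left out (1.25, adjusted p = 0.0155), and in hyperoxia with array weights (adjusted p = 0.0497). With the replicate number as a block it passed in both exposures. All other alternatives gave no pass for Htra1, among them leaving out both arrays numbered 3. Grb14, an adaptor that inhibits the insulin receptor, was higher in SD by 0.32 (SE 0.0988, adjusted p = 0.392) in hyperoxia and by 0.27 (SE 0.0988) in room air, and did not pass. Nor did Foxo4, a transcription factor that Akt inhibits (0.28 between the strains in room air), Ins1, an insulin gene (-0.33 in hyperoxia), Insrr, the insulin receptor-related receptor (0.23 for exposure in F344), or Pdpk1, the kinase that activates Akt (0.32 for the SD minus F344 difference of exposure effects). Ins1 (4.9 to 5.5) and Insrr (4.7 to 5.1) were dim, below the array medians in all pools.

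The genes whose pattern was most like that of Igfbp2 were ranked by Pearson's r over the 10 arrays among 14323 other genes, as a description: the arrays share 2 exposures and 2 strains, and the exposure difference of Igfbp2 largely sets the order. The highest was Cox4i2 (r = 0.968), an isoform of a cytochrome oxidase subunit used in low oxygen, followed by Pdk1 (0.967), which phosphorylates and shuts down pyruvate dehydrogenase, Fam162a (0.963), Slc16a3 (0.947), Abcc9 (0.936), which is also on the pericyte list, C4h2orf81 (0.925), Myo1f (0.925), the glycolytic enzymes Tpi1 (0.921), Aldoa (0.919) and Gpi (0.918), Bnip3 (0.908) and Etv1 (0.906). Without the arrays numbered 3 these values ran from 0.891 to 0.979, and without the 2 arrays farthest from the Igfbp2 median, both of SD hyperoxia, from 0.793 to 0.949. Over the arrays Abcc9 ran only from 5 to 5.4, C4h2orf81 from 4.5 to 5 and Myo1f from 4.8 to 5.3. These 3 genes lay below the array medians, and values deposited to 1 decimal give them a coarse pattern. Cox4i2 stood at 7.7 and 7.9 in SD hyperoxia, against 9.0, 9.3 and 9.4 in SD room air, and at 8.1, 8.1 and 8.5 in F344 hyperoxia, against 8.7 and 8.8 in F344 room air. It thus shared with Igfbp2 the lowest level in SD hyperoxia and the highest in SD room air.

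At the other end of the ranking stood Pik3r3 with the lowest r of all 14323 genes (-0.944, and -0.966 without the 2 farthest arrays), then Dmd (-0.903), Smr3b (-0.898) and Tasp1 (-0.871). Their ranges over the arrays were narrow too: 9.9 to 10.3 for Pik3r3, 10 to 10.3 for Dmd, 3.9 to 4.5 for Smr3b and 6.5 to 7 for Tasp1. The other members ranked far from Igfbp2, from Igf2 (rank 385, r = 0.613) and Igfbp4 (rank 575, r = 0.561) to Igf2r (rank 11289, r = -0.287). Of the 12 genes most like Igfbp2, 11 had promoter windows in the RefSeq table (13 windows), of which 3 held ACGTG and 9 the GC box. Over all 33469 windows 16.6% held ACGTG and 30.5% the GC box, and the counts were not tested against these shares. The windows with ACGTG were those of Fam162a, Bnip3 and 1 start of Aldoa.

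**Figure D5:**
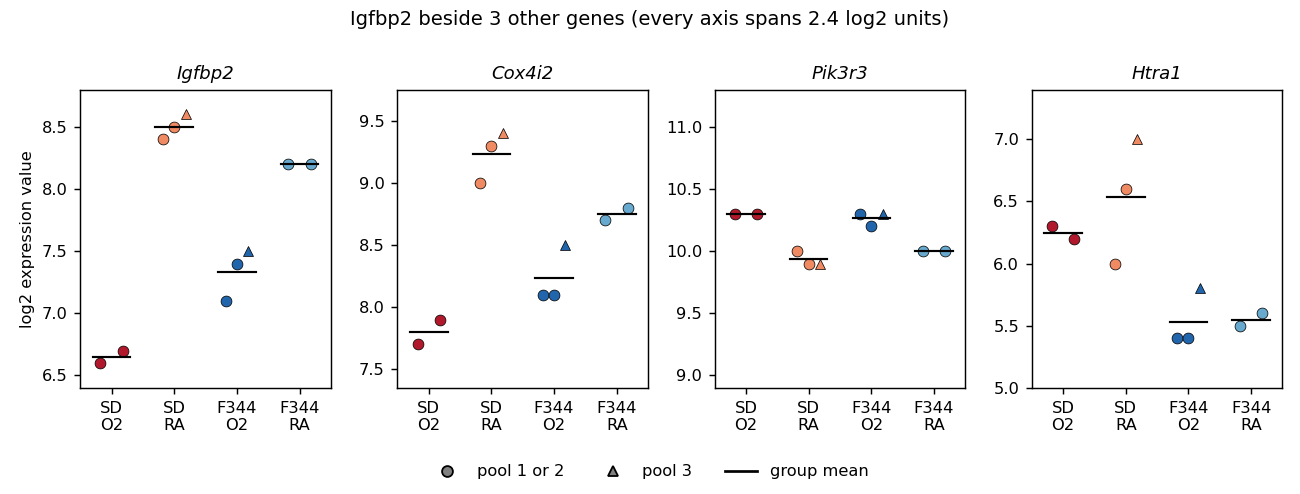
Log2 expression value (vertical axis, with the same span in every panel) of Igfbp2, of Cox4i2 and Pik3r3, the genes with the highest and the lowest r with it, and of Htra1, in each retinal pool by strain and exposure (O2, cyclic hyperoxia; RA, room air). Points are pools, triangles the pools numbered 3 and lines group means. Pik3r3 lies at 10.2 or 10.3 in hyperoxia and at 9.9 or 10 in room air, and Htra1 lies higher in SD than in F344.

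The other nearest measured genes on each side of the 8 genes in the RefSeq order showed no pass either. Unmeasured genes in between numbered from 0 to 18. Of the 14 such genes that are no members, 0 passed in any of the 6 comparisons. Hus1, a DNA damage checkpoint gene with 11 unmeasured genes between it and Igfbp3, had the smallest p of them. Its strain difference in room air was 0.45 (SE 0.109, adjusted p = 0.117 by limma).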

How the data were processed

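Retinal RNA of 10 pools was measured on Affymetrix whole-transcript rat gene arrays. The deposited table holds log2 expression values per probe set, which the authors gave to 1 decimal. RMA and Partek 6.4 are the tools listed per the submitters' processing notes, which leave their roles unsaid; how background and scale were set is not given in the sources used here. One rounding step sets the smallest difference that can be seen. Signal over background at single probes was not used. Groups came from the sample titles and strain labels.

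From these values limma 3.58.1 in R 4.3.3 fitted a mean per group to all 10 arrays and 27342 probe sets (6 residual degrees of freedom), with eBayes, two-sided tests, p-values adjusted by Benjamini-Hochberg across the whole table, and 0.05 as the threshold. The method was tested on simulated data. Of the probe sets, 15097 had 1 gene symbol, 323 several and 11922 none; of several probe sets of a gene the brightest on average was used. The assembly GRCr8 of RefSeq served for gene order and promoter sequences.

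The members and lists were chosen with earlier results of these data known. The genes named are the members; the other axis genes with the 4 smallest p-values per comparison, or passing, apart from Igfbp1, which was named as a neighbour; the 12 genes most like and 4 least like Igfbp2; the nearest measured neighbours; and the genes next to Igfbp2 in order of p or size. Alternatives are given in the closing section; those for the pools numbered 3 were chosen after seeing the data.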

Additional observations from a re-analysis of the deposited data

Results flagged for a closer look

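Igfbp2 differed between the strains in opposite directions under the 2 exposures. In hyperoxia it stood at 6.6 and 6.7 in SD pools, against 7.1, 7.4 and 7.5 in F344 pools, and in room air at 8.4, 8.5 and 8.6 in SD pools, against 8.2 and 8.2 in F344 pools. Every SD pool was thus lower than every F344 pool in hyperoxia and higher in room air. The strains did not overlap at 14.7% of all probe sets in hyperoxia and at 19.7% in room air. By limma the room-air difference of Igfbp2 did not pass (adjusted p = 0.397). That in hyperoxia did not pass without both arrays numbered 3 (adjusted p = 0.122). Neither p is independent of the choice of the gene. The difference between these strain differences was -0.983 on the log2 scale, and it was not tested here, because the hyperoxia effect of Igfbp2 chose the gene. With a term for the pools numbered 3 it was -0.85.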

How the results depend on the processing

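Over the alternatives (median centring, quantile normalization done again, the brighter probe sets only, eBayes with trend and robust settings, a term for the pools numbered 3, leaving both of them out, the replicate number as a block, array weights, other ways to count probe sets, only the groups compared, and each array left out), no called value changed sign. Igfbp2 ran from -1.9 to -1.78 in SD and from -0.95 to -0.75 in F344, and 0 of the 7 other members passed in any exposure comparison under any of these. Of 883 values of members that did not pass, 25 changed sign, and the cause was not tested. The count of members passing between the strains in hyperoxia, 1 (Igfbp2), was 0 without both arrays numbered 3 and 0 with only the hyperoxia groups, and between 0 and 1 with 1 array left out. It was 1 with the replicate block (Igfbp2 at -0.62, adjusted p = 0.0185), and the block added no member to any comparison. These calls of Igfbp2 use the hyperoxia arrays of the contrasts that chose it and are not independent of that choice. Of the other axis genes, 1 (Htra1) passed between the strains in room air with median centring, the term for the pools numbered 3 and the replicate block (0.80, adjusted p = 0.0304), and in hyperoxia with that term, the replicate block (0.90, adjusted p = 0.0193) and array weights, with 1 array left out between 0 and 1 in room air. Over all probe sets the counts that passed were 12 in SD (0 to 29 under the alternatives), 1 in F344 (0 to 4), 11 on average (2 to 44, and 1 to 22 with 1 array left out), 152 between the strains in room air (19 to 378) and 125 in hyperoxia (21 to 280); the cause was not tested. With the replicate block they were 18, 3, 36, 300 and 199. Of 13 same-numbered pairs of samples across groups, 4 had deviations from their group means correlated above 0.1. In a group of 2 arrays the deviations mirror each other, so this count cannot settle whether the numbers pair samples. They were not taken to do so.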
